A study of Rattus norvegicus with 12 samples.

Results

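The expression of 10 genes that encode chromatin regulators of oligodendrocyte differentiation was examined in cultured rat oligodendrocyte precursor cells (OPCs) after mild hypoxic preconditioning. These genes, Chd7, Chd8, Smarca4, Ezh2, Eed, Hdac1, Hdac2, Hdac3, Dnmt1 and Prmt5, were selected by symbol among the 30562 genes of the count table, and each had a row. Bulk RNA-seq libraries had been prepared from primary OPCs isolated from the cortices of neonatal wild-type Sprague-Dawley rats and expanded with growth factors. In mild-hypo-OPCs (6 libraries) the oxygen fraction was 5% FiO2, for 6 hours per the sample labels and for a number of days per the methods of the study, and standard OPCs (6 libraries) were kept in room air. A legend of the study counts fewer biological replicates per group than the libraries analysed here, and nothing says which libraries share a culture. The p-values and SDs over 6 libraries therefore measure the spread between these libraries, which may be technical, and would be too small if some share a culture. The mild-hypo-OPC libraries held between 4111669 and 9022324 counts, and the standard libraries between 1356079 and 2797513. The ranges did not overlap, and sequencing depth and oxygen therefore cannot be told apart. Ribosomal RNA rows took 17.4% to 25.25% of the mild-hypo-OPC counts and 23.87% to 38.42% of the standard OPC counts.

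Chromatin regulators set which genes of the oligodendrocyte lineage can be transcribed. CHD7, CHD8 and SMARCA4 are ATP-dependent remodellers that move nucleosomes and are needed for OPC differentiation and myelination, EZH2 and EED belong to Polycomb repressive complex 2, which methylates histone H3 at lysine 27, and HDAC1, HDAC2 and HDAC3 remove acetyl groups from histones within co-repressor complexes. DNMT1 copies DNA methylation to the new strand at replication, and PRMT5 places symmetric dimethylation on arginines of histones and splicing proteins.

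Of these 10 genes, Chd7 was lower in mild-hypo-OPCs, 0 were higher, and the other 9 did not pass the test (edgeR's quasi-likelihood test with Benjamini-Hochberg adjustment over 8938 genes). The background was larger than the members' share in each direction, since 17.0% of all genes tested were called lower, 7.00% higher and 24.0% in either direction. At an unadjusted p under 0.05 there were 1 higher and 1 lower among the 10, against 36.3% of all genes in either direction. The median log2 fold change of the 10 genes was -0.01 and that of all genes tested was -0.003. No member had library ranges that separated the 2 groups, as 8.35% of all genes did. All 10 members passed the filter on low counts, with 13 to 2020 counts per library.

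Short stretches of the promoters are shown for the members whose window, 250 bases before to 50 after the RefSeq start, held the letters of a searched motif. The promoter table (RefSeq, assembly GRCr8) held 8 of the 10 members and not Chd7 or Chd8. The E2F letters, TTTCCCGC, TTTGGCGC, TTTGCCGC or TTTCGCGC on either strand, are bound by cell cycle factors and occurred in 2.14% of 33469 promoters and in those of Ezh2 and Dnmt1. The letters ACGTG on either strand, a form of the core of the hypoxia response element, occurred in 19.3% of promoters and in those of Ezh2 and Hdac2. Other forms of this core were not searched, so the remaining member promoters may hold them. Capitals mark the match, and each stretch is 30 bases on the strand of the gene. Counted from the start with the start base included, the E2F match of Ezh2 begins at base 10, at chr4:77687156-77687185 (minus strand). That of Dnmt1 begins at base 26, at chr8:27762798-27762827 (minus strand). The ACGTG matches lie 246 bases before the start for Ezh2, at chr4:77687404-77687433 (minus strand), and 227 bases before it for Hdac2, at chr20:42102887-42102916 (plus strand).
Ezh2, E2F letters: gggctgctgcgTTTGGCGCtcggtccggtc
Dnmt1, E2F letters: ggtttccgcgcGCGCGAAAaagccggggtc
Ezh2, ACGTG: accgCACGTtggcaaaagaacaaagacaga
Hdac2, ACGTG: gaccgagagggggACGTGgtggcagagcgt

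Chd7 was the remodeller that fell in mild-hypo-OPCs. Its level in CPM (counts relative to the library total, scaled by TMM factors) was 33.9 at lowest, 46.9 at the median and 64 at highest in mild-hypo-OPCs, and 44.0, 68.2 and 94.0 in standard OPCs. The groups overlapped: 3 of 6 mild-hypo-OPC libraries, replicates 3, 4 and 6, were below the lowest standard library, and 0 of 6 exceeded the standard median. The means were 47.4 ± 11.7 and 68.6 ± 17.9 CPM (SD, n = 6), and the log2 fold change was -0.51 (SE 0.17, 95% interval -0.87 to -0.16, adjusted p = 0.0336 by edgeR's quasi-likelihood test). Chd7 varied more between replicates than the other 9 genes did in either group, with an SD of 24.7% of the mean in mild-hypo-OPCs and 26.1% in standard OPCs. Standard replicate 3 was the highest of the 12 libraries at 94.0 CPM and standard replicate 5 was the lowest of its group at 44.0 CPM. Mild-hypo-OPC replicates 3, 4 and 6 were also the lowest of their group for Chd8 (62.1, 69.2 and 58.3 CPM) and Smarca4 (152, 170 and 158 CPM).

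The call for Chd7 depended on the libraries and the settings. It passed in 8 of 13 other settings, with an adjusted p of 0.0484 by limma-voom and of 0.0249 by DESeq2. The call was kept in 6 of 12 edgeR fits that each left out 1 library. It was lost without mild-hypo-OPC replicate 3 (adjusted p = 0.0818), 4 (0.0743) or 6 (0.0715) or standard replicate 3 (0.117), 4 (0.0653) or 6 (0.0784). With every library thinned once to the smallest total, which also leaves fewer counts to test, the log2 fold change was -0.39 (adjusted p = 0.139, edgeR). Adding the log2 total count, which cannot be separated from condition, gave -0.96 (SE 0.33, adjusted p = 0.328, edgeR). With scaling to library size alone, which moved the median of all genes tested to 0.43, Chd7 had a log2 fold change of -0.07 (adjusted p = 0.668). In that scaling it was one of the members that did not pass the test, while 7 of the 10 were called higher.

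Chd8 encodes a remodeller of the same family and was close in level between the groups. It ran from 58.3 to 88.2 CPM (median 71.7) in mild-hypo-OPCs and from 60.0 to 87.9 CPM (median 76.8) in standard OPCs, and the 2 ranges were nearly the same. The log2 fold change was -0.07 (SE 0.11, 95% interval -0.30 to 0.16, adjusted p = 0.701, edgeR).

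The ratio of Chd7 to Chd8 counts inside each library, which no scaling factor can alter, was lower in mild-hypo-OPCs. On the log2 scale, with 0.5 added to each count, it was -0.46, -0.50, -0.74, -0.74, -0.52 and -0.78 in mild-hypo-OPC replicates 1 to 6 and -0.41, -0.25, 0.10, -0.07, -0.44 and 0.04 in standard replicates 1 to 6. All 6 mild-hypo-OPC libraries were below all 6 standard libraries, by a narrow gap from -0.46 to -0.44. The means were -0.62 ± 0.14 and -0.17 ± 0.23 (SD, n = 6 each), so the ratio was 0.731 times that of standard OPCs (p = 0.00216, two-sided exact permutation test, the smallest p that 6 against 6 allows, adjusted p = 0.0173 over 8 ratios). With every library thinned to the smallest total, the difference was -0.36 and did not pass (p = 0.0606, exact permutation test, adjusted p = 0.242). The ratio shows an unequal difference of the pair and not which of the genes moved. Within standard OPCs, replicates 1 and 5 had the lowest ratios and the lowest ribosomal RNA shares (23.87% and 25.31%). Standard replicates 3, 4 and 6 had the highest ratios and the highest shares (36.45%, 38.42% and 32.67%). Mild-hypo-OPC replicates 3 and 4 had equal ratios at shares of 22.77% and 17.4%. The part of the ribosomal RNA share in the ratio was not tested.

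**Figure D1:**
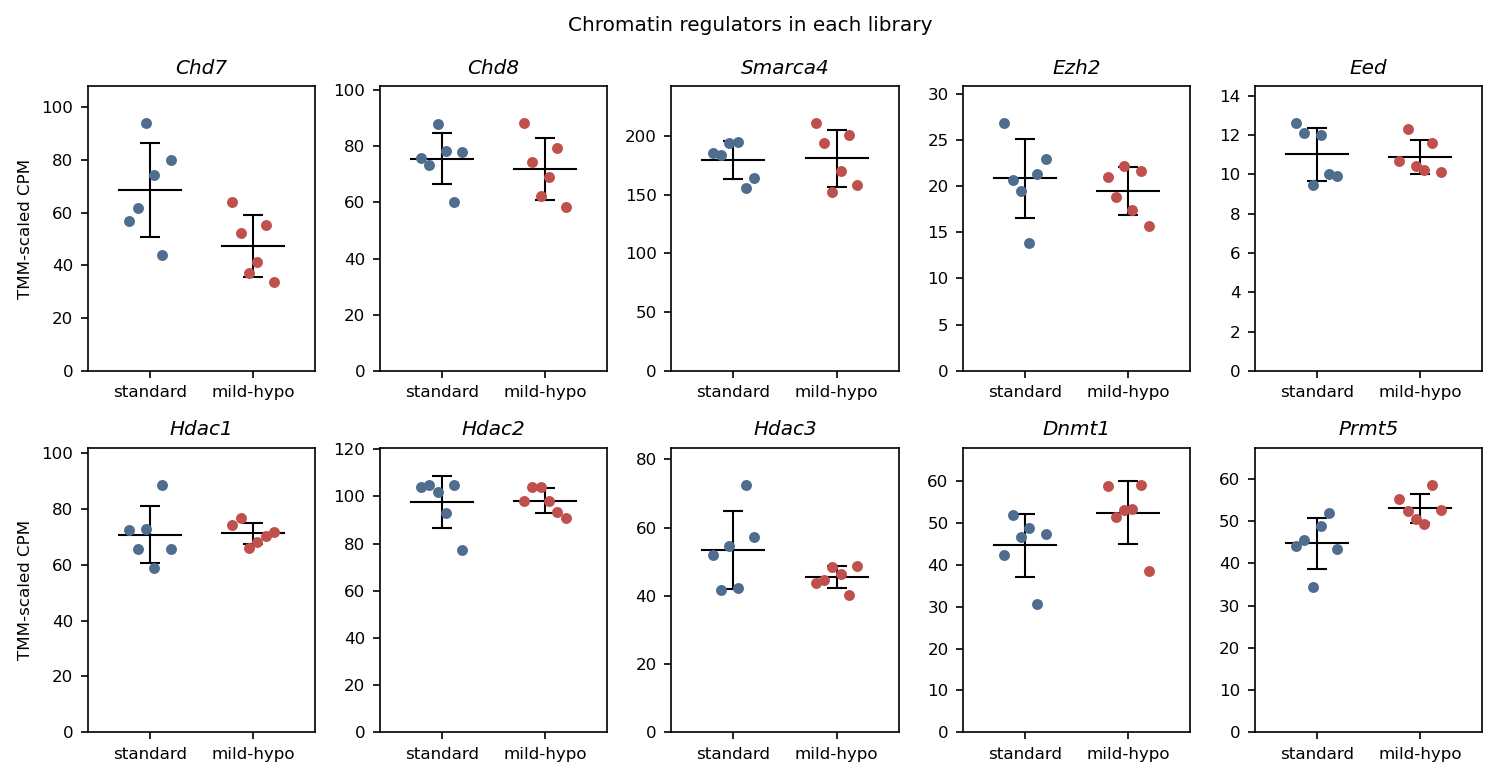
Level of each of the 10 regulators in CPM (TMM-scaled) in the 6 mild-hypo-OPC and the 6 standard OPC libraries, with points for libraries and bars for the mean and SD. The Chd7 libraries of mild-hypo-OPCs run from 33.9 to 64 CPM and those of standard OPCs from 44.0 to 94.0 CPM, and no gene has fully separated groups.

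**Figure D2:**
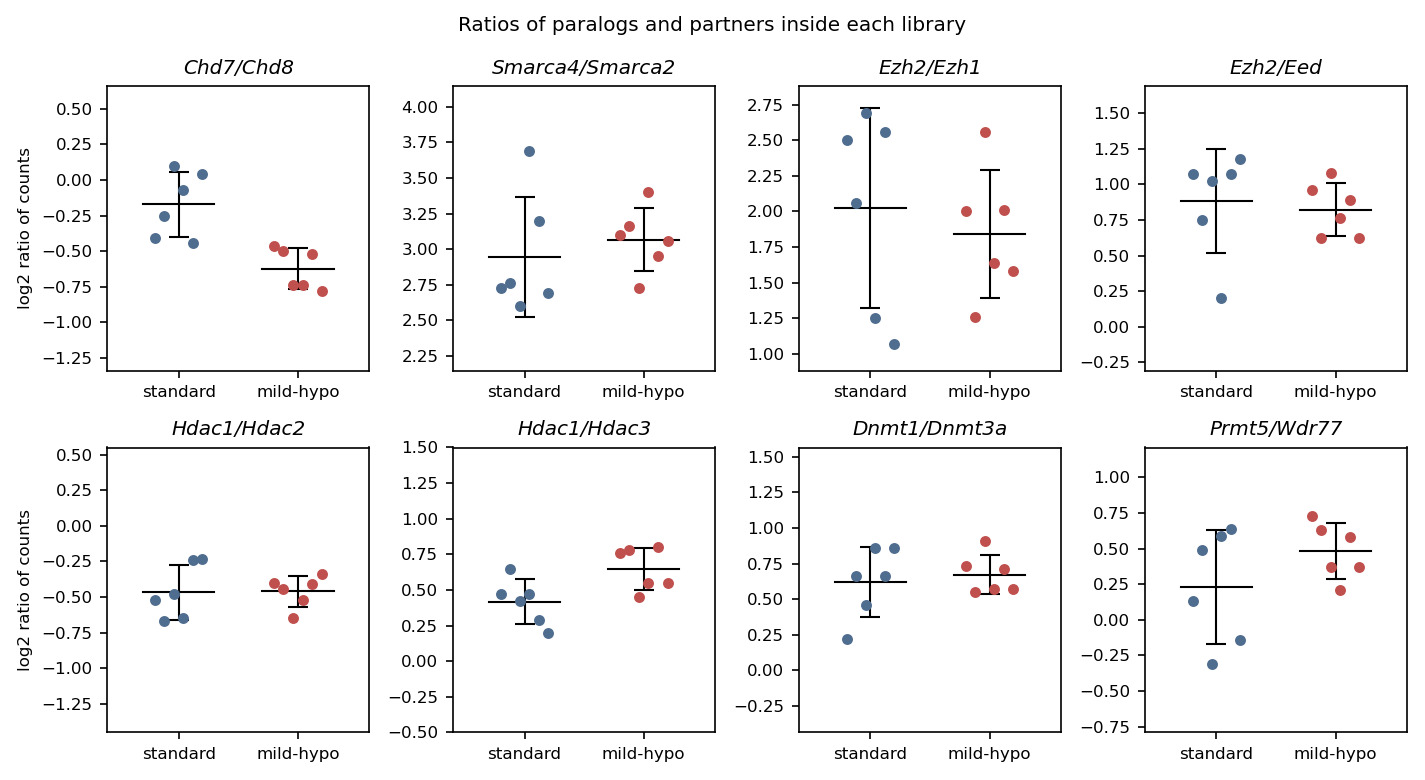
Log2 ratios of the counts of gene pairs within each library, in mild-hypo-OPCs and standard OPCs, with points for libraries and bars for the mean and SD (n = 6 per group). Chd7/Chd8 is the pair whose ranges do not overlap, from -0.78 to -0.46 against -0.44 to 0.10.

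Smarca4 encodes BRG1, a catalytic ATPase of the SWI/SNF complex. Its level was 152, 182 and 211 CPM (lowest, median and highest) in mild-hypo-OPCs and 156, 185 and 195 CPM in standard OPCs, and the ranges overlapped almost throughout. The log2 fold change of 0.01 had a 95% interval of -0.19 to 0.21 (SE 0.09, adjusted p = 0.962, edgeR). Smarca2, the alternative ATPase of the complex, was at 21.6 ± 3.68 and 23.9 ± 6.7 CPM (SD, n = 6), with a log2 difference of -0.18 that did not pass. The log2 ratio of Smarca4 to Smarca2 differed by 0.12 between the groups (adjusted p = 0.866, exact permutation test, n = 6).

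The catalytic subunit of Polycomb repressive complex 2, Ezh2, was at 15.7, 19.9 and 22.2 CPM in mild-hypo-OPCs and at 13.8, 21.0 and 26.8 CPM in standard OPCs. The mild-hypo-OPC values fell within the range of the standard values. The log2 fold change was -0.13 (SE 0.14, 95% interval -0.42 to 0.16, adjusted p = 0.533, edgeR). Eed, the subunit that reads the methyl mark, ran from 10.1 to 12.3 CPM (median 10.6) and from 9.45 to 12.6 CPM (median 11), again with one range inside the other. Its log2 fold change was -0.03 (SE 0.14, 95% interval -0.33 to 0.27, adjusted p = 0.912, edgeR). Eed is the member with the fewest counts, 13 to 33 per standard library, and its interval includes differences of the size measured for Hdac3, Dnmt1 and Prmt5. The ratio of Ezh2 to Eed differed by -0.06 on the log2 scale (adjusted p = 0.871, exact permutation test, n = 6), and that of Ezh2 to Ezh1, the other methyltransferase of the complex, by -0.18 (adjusted p = 0.866, exact permutation test, n = 6). Ezh1 did not pass the filter on low counts and had as few as 5 counts in a standard library.

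Hdac1 and Hdac2, class I deacetylases that partly replace each other in the lineage, had the narrowest intervals of the 10 genes. Hdac1 was at 66.1, 71.0 and 76.6 CPM in mild-hypo-OPCs and at 58.9, 69.0 and 88.6 CPM in standard OPCs, with a log2 fold change of 0.01 (SE 0.09, 95% interval -0.18 to 0.19, adjusted p = 0.974, edgeR). Hdac2 was at 90.9, 98.1 and 104 CPM and at 77.1, 103 and 105 CPM, with a log2 fold change of 0.00 (SE 0.08, 95% interval -0.17 to 0.17, adjusted p = 0.990, edgeR). For both genes the mild-hypo-OPC libraries were all within the range of the standard libraries. The log2 ratio of Hdac1 to Hdac2 was -0.46 ± 0.11 and -0.47 ± 0.19 (SD, n = 6), a difference of 0.00 (adjusted p = 0.974, exact permutation test). A near copy of Hdac1, annotated as Hdac1l, held 21 counts in all 12 libraries beside 3427 for Hdac1.

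Hdac3, the deacetylase of the NCoR and SMRT co-repressors, was at 40.3, 45.5 and 48.9 CPM in mild-hypo-OPCs and at 41.7, 53.2 and 72.6 CPM in standard OPCs. Here 0 of 6 mild-hypo-OPC libraries exceeded the standard median, and the standard libraries were spread widely, with replicate 5 highest. The log2 fold change was -0.23 (SE 0.11, 95% interval -0.47 to 0.00, unadjusted p = 0.0505 and adjusted p = 0.139 by edgeR). The log2 ratio of Hdac1 to Hdac3 was 0.23 higher in mild-hypo-OPCs, above the standard median in 6 of 6 libraries, and did not pass after adjustment (p = 0.0325, exact permutation test, adjusted p = 0.13).

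Dnmt1, the maintenance DNA methyltransferase, was at 38.5, 53.2 and 59.1 CPM in mild-hypo-OPCs and at 30.7, 47.0 and 51.8 CPM in standard OPCs. There were 4 of 6 mild-hypo-OPC libraries above the highest standard library, and replicate 6 lay far below the other mild-hypo-OPC libraries at 38.5 CPM. The log2 fold change was 0.24 (SE 0.12, 95% interval -0.02 to 0.49, adjusted p = 0.169, edgeR). Without mild-hypo-OPC replicate 6 it was 0.34 and passed the test (adjusted p = 0.028, edgeR). That was the 1 call among 12 fits that each left out 1 library, with log2 fold changes from 0.16 to 0.34. Of 13 other settings, 1 called Dnmt1, that with library size alone. Relative to Dnmt3a, which writes methylation at unmethylated sites, Dnmt1 differed by 0.05 on the log2 scale (adjusted p = 0.866, exact permutation test, n = 6).

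Prmt5 was the member nearest to a call in the higher direction. Its level was 49.2, 52.5 and 58.6 CPM in mild-hypo-OPCs and 34.5, 44.7 and 52.0 CPM in standard OPCs. All 6 mild-hypo-OPC libraries were above the standard median and 4 were above the highest standard library, replicate 5. The log2 fold change was 0.26 (SE 0.09, 95% interval 0.06 to 0.46, unadjusted p = 0.0133 and adjusted p = 0.0537 by edgeR). It passed in 5 of 13 other settings, with an adjusted p of 0.0276 by DESeq2 and of 0.0148 with upper-quartile scaling, and in 4 of 12 fits that each left out 1 library. With libraries thinned to the smallest total the log2 fold change was 0.17 (adjusted p = 0.37, edgeR). The ratio of Prmt5 to Wdr77, its obligate partner in the methylosome, was 0.25 higher on the log2 scale and did not pass (adjusted p = 0.571, exact permutation test, n = 6).

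**Figure D3:**
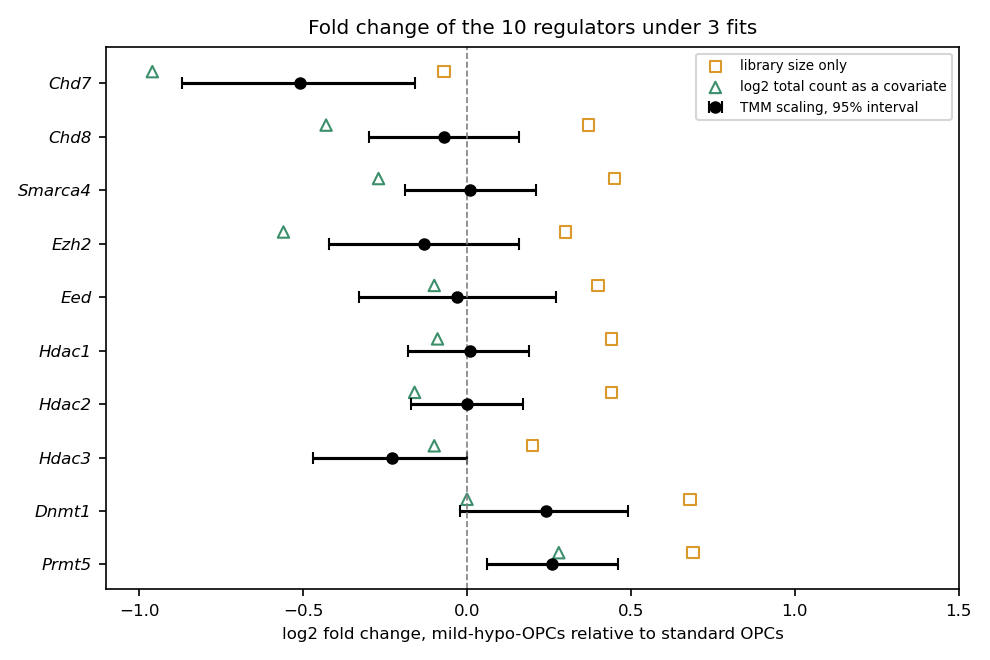
Log2 fold change of the 10 regulators in mild-hypo-OPCs relative to standard OPCs, with the 95% interval under TMM scaling (black), the value with scaling to library size alone (squares) and the value with log2 total count added to the model (triangles). The Chd7 and Prmt5 intervals exclude 0, and library size alone places 9 of the 10 genes above 0.

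The other genes of the same complexes, in 6 lists of 107 genes, showed 3 genes higher and 11 lower of 89 tested. Both shares were below those of all genes tested, 7.00% higher and 17.0% lower. The median log2 fold change of these lists was -0.02. Of the 14 called genes, 11 were called in all 12 fits that left out 1 library. Among remodellers, 0 of 6 CHD genes tested by edgeR were called (1 lower at an unadjusted p under 0.05). Of 24 SWI/SNF subunits 2 were called, both lower: Smarcd3, a subunit that varies between tissues (-0.61, SE 0.16, adjusted p = 0.01), and Bcl7c (-0.77, SE 0.14, adjusted p = 0.000627). Bcl7c was at 23.0 ± 2.56 CPM in mild-hypo-OPCs and 40.5 ± 9.83 CPM in standard OPCs (SD, n = 6), and its groups did not overlap, as was so in the lower direction for 5.40% of all genes tested.

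Among Polycomb genes, 15 of 23 were tested and 2 were lower, where 17.0% of all genes tested were called lower. Rbbp4, a histone chaperone that Polycomb shares with deacetylase complexes, had a log2 fold change of -0.34 (SE 0.09, adjusted p = 0.00892), and Rnf2, the ubiquitin ligase of Polycomb repressive complex 1, had one of -0.31 (SE 0.10, adjusted p = 0.0311). Rnf2 was called in only 4 of 12 fits without 1 library, and with library size alone both genes turned positive, at 0.10 for Rbbp4 and 0.13 for Rnf2. Suz12, the third core subunit beside Ezh2 and Eed, was at 31.3 ± 2.06 and 29.9 ± 4.57 CPM (SD, n = 6; adjusted p = 0.777, edgeR).

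The partners of the deacetylases gave 2 higher and 4 lower genes of 27 tested, where 7.00% of all genes tested were called higher and 17.0% lower. Kdm1a, the histone demethylase of the CoREST complex, rose by 0.34 on the log2 scale (SE 0.10, adjusted p = 0.0189), from 40.2 ± 6.66 CPM in standard OPCs to 51.6 ± 3.64 CPM in mild-hypo-OPCs (SD, n = 6; edgeR). Hdac6, a mainly cytoplasmic deacetylase of tubulin, rose by 0.46 (SE 0.13, adjusted p = 0.0159). Gps2, a subunit of the Hdac3 co-repressor, had the largest difference of these 6 at -1.20 (SE 0.20, adjusted p = 0.00032), and its standard libraries were spread from 26.7 to 94.1 CPM. Sap18 (-0.74) and Sin3b (-0.33), both of the Sin3 complex, and Mbd3 (-0.29), of the NuRD complex, were also lower with TMM scaling, while with library size alone Sin3b (0.11) and Mbd3 (0.15) turned positive. Sin3b was called in 5 of 12 fits without 1 library.

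Uhrf1, which brings DNMT1 to replicating DNA, was the 1 called gene of 7 DNA methylation genes tested. It was at 22.9 ± 2.97 CPM in mild-hypo-OPCs and 13.7 ± 2.12 CPM in standard OPCs (SD, n = 6). The log2 fold change was 0.71 (SE 0.14, adjusted p = 0.00109, edgeR). Its groups did not overlap, as was so in the higher direction for 263 of the 8938 genes tested. The same gene was called in all 12 fits without 1 library. Of 10 arginine methylation genes, 3 were lower and 0 higher, where 17.0% of all genes tested were called lower and 7.00% higher. Prmt1, the main enzyme of asymmetric dimethylation, fell from 184 ± 34.3 to 123 ± 11.9 CPM (SD, n = 6; log2 fold change -0.57, SE 0.11, adjusted p = 0.000954, edgeR), and Clns1a and Coprs, cofactors that direct PRMT5 to its substrates, had log2 fold changes of -0.76 (adjusted p = 0.000283) and -1.01 (adjusted p = 0.00699). Coprs was spread from 7.92 to 40.7 CPM in standard OPCs, and the mild-hypo-OPC libraries lay inside that range, at 8.66 to 14.2 CPM. Wdr77 had a log2 fold change of -0.01 (SE 0.11, adjusted p = 0.964).

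**Figure D4:**
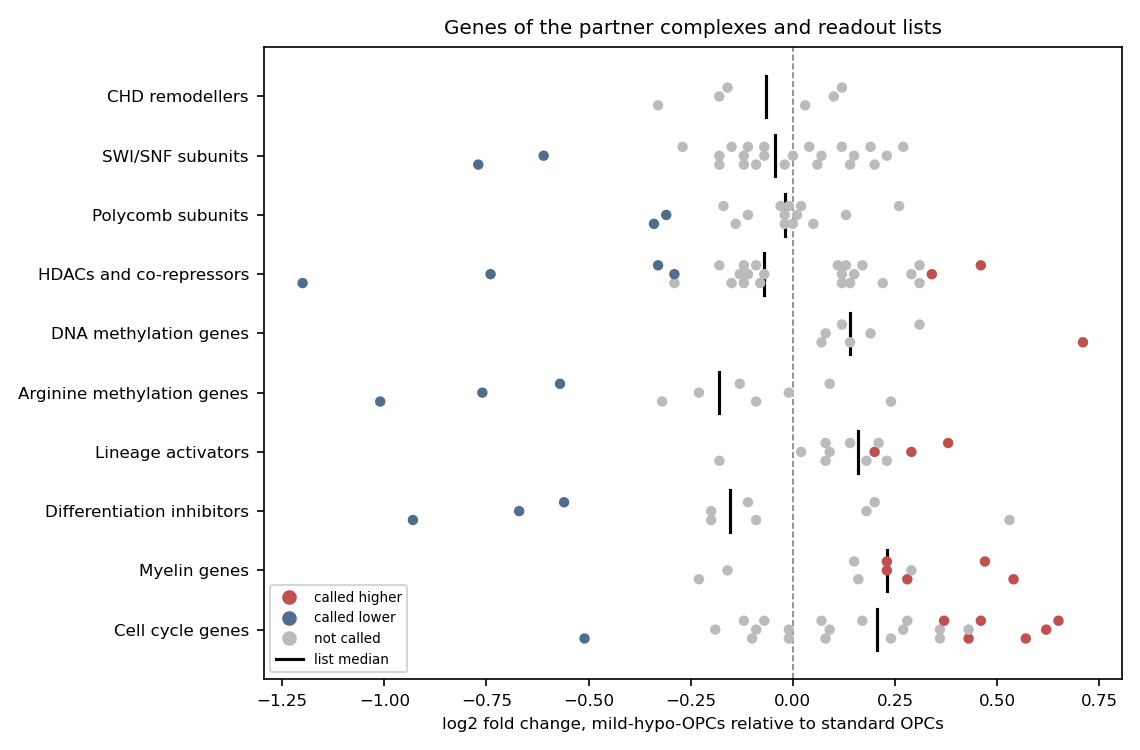
Log2 fold changes of the tested genes of each list, mild-hypo-OPCs relative to standard OPCs, with 1 point per gene (red called higher, blue called lower, grey not called) and a black line at the list median. The 10 regulators are not drawn, and the medians run from -0.18 for arginine methylation genes to 0.23 for myelin genes.

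Lists of lineage factors, myelin genes and cell cycle genes were compared in the same fit. Whether the regulators act on these genes was not tested. Of all genes tested, 7.00% were called higher and 17.0% lower. Of 12 lineage activators 3 were higher and 0 lower (12 higher with library size alone, 0 with replicates 1 to 3 or with log2 total count in the model): Nkx2-2 (0.20, adjusted p = 0.0486), Zfp488 (0.29, adjusted p = 0.0132) and Myrf, the transcription factor that drives myelin gene expression (0.38, SE 0.13, adjusted p = 0.0441). Nkx2-2 was called in 4 and Myrf in 5 of 12 fits without 1 library. Olig2 was at 306 ± 8.65 and 288 ± 18.6 CPM and Sox10 at 554 ± 41.9 and 472 ± 73.1 CPM in mild-hypo-OPCs and standard OPCs (SD, n = 6), and neither passed. Of 10 differentiation inhibitors tested, Id1, Id2 and Id3, which block basic helix-loop-helix factors, were lower and 0 were higher. With library size alone 5 of this list were higher and 1 lower, and 1 was lower with replicates 1 to 3 and 0 with log2 total count in the model. Id2 fell from 96.5 ± 14.9 to 50.2 ± 2.77 CPM (SD, n = 6), for a log2 difference of -0.93 (SE 0.10, adjusted p = 3.82e-05, edgeR).

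Myelin genes gave 5 higher and 0 lower of 10 tested, where 7.00% of all genes tested were called higher and 17.0% lower. With library size alone 9 were higher, against 1 with replicates 1 to 3 and 0 with log2 total count in the model. Among the higher genes, Cldn11 (0.54, adjusted p = 0.00155, edgeR), Mag (0.47, adjusted p = 0.00295, edgeR) and Cnp (0.28) had groups that did not overlap. This was so in the higher direction for 263 of the 8938 genes tested. Ugt8 (0.23) was also higher, and was called in 7 of 12 fits without 1 library. Mbp was at 7132 ± 454 and 5851 ± 950 CPM (SD, n = 6) and missed the threshold (adjusted p = 0.0555, edgeR), so that myelin transcripts were present in the OPC cultures of both groups. Of 24 cell cycle genes 6 were higher and 1 lower, against 21 higher with library size alone, 0 with replicates 1 to 3 and 0 with log2 total count in the model, and 0 lower in each of these. The higher genes Mcm2, Mcm4, Mcm5 and Mcm6 belong to the replicative helicase, with log2 fold changes from 0.46 to 0.65, whereas the proliferation marker Mki67 ran from 10.9 to 29.9 CPM in mild-hypo-OPCs, inside the 10.7 to 36.7 CPM of standard OPCs, and did not pass. Top2a (0.43) and Rrm2 (0.37) were higher and Birc5, an inhibitor of apoptosis used in mitosis, was lower (-0.51), the latter in 2 of 12 fits without 1 library. When log2 total count was added to the model, Myrf, Zfp488, Id3, Top2a, Birc5, Prmt1, Coprs and Mbd3 changed sign.

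The 3 genes whose log2 CPM over the 12 libraries was most like that of Chd7 were Maml2 (Pearson r = 0.961), a Notch co-activator, Ercc6 (r = 0.958), a DNA repair ATPase, and Kmt2a (r = 0.954), a histone H3 lysine 4 methyltransferase. After removal of the group means the values were 0.937, 0.954 and 0.935. These libraries share their depth differences, and the correlations are a description. Each of the 3 was lower in mild-hypo-OPCs, with log2 fold changes of -0.34, -0.44 and -0.71 in that order. They were picked for likeness to Chd7 over both groups, so the shared direction follows in part from the choice.

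Several features of the libraries moved with the groups, and their part in these results was not tested. In bulk samples, fewer cells of a type and less RNA per cell cannot be told apart. Genes with a short genomic span were lower in mild-hypo-OPCs across the table: by RefSeq GRCr8 spans, matched by symbol for 95.5% of the genes tested, the median log2 fold change was -0.32 for spans up to 5 kb, of which 42.2% were called lower, and 0.07 for spans of 100 to 200 kb, of which 4.69% were. The shortest of the genes described as lower were Id1 (1.17 kb), Id3 (1.61 kb), Id2 (1.83 kb), Gps2 (3.06 kb) and Sap18 (4.31 kb), all within the class up to 5 kb. Coprs spans 5.4 kb, Prmt5 9.39 kb, Prmt1 10.2 kb, Clns1a 21.5 kb and Chd7 183 kb. In the class of 100 to 200 kb, 2.28% of genes had a log2 fold change below that of Chd7, against 11.9% of all genes tested. Chd7 was looked up as the called member, so its low place follows in part from the choice. The 7 OPC markers summed to 3726 to 4326 CPM under mild hypoxia and 3083 to 3827 CPM in room air, and all were detected. One of the 7, Gpr17, which marks committed precursors, was called higher (0.45, SE 0.09, adjusted p = 0.000842, edgeR). Its groups did not overlap, as was so in the higher direction for 263 of the 8938 genes tested. Astrocyte markers summed to 440 to 546 and 415 to 462 CPM (1 of 5 tested called higher), neuron markers to 263 to 294 and 169 to 225 CPM (1 of 5 higher), and microglia markers to 47.5 to 65.8 and 22.1 to 49.6 CPM (2 higher and 1 lower of 4). The neuron sums did not overlap between the groups. Among all genes tested, 7.00% were called higher and 17.0% lower. Vascular and mesenchymal markers summed to at most 2.66 CPM, with Cdh5 at 0 in every library.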

How the data were processed

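Gene counts were analysed in 12 bulk RNA-seq libraries of rat OPCs. The authors prepared strand-specific libraries and, per the labels, used Trimmomatic 0.36, FastQC 0.11.9, STAR 2.7.9a (assembly mRatBN7.2) and RSEM 1.3.3. The deposited values are unnormalized counts, all whole numbers, for each Ensembl gene, and how they were made whole is not given in the sources used here. Of 30562 genes, 13171 had no count. Groups came from the labels.

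The 8938 genes that exceeded a CPM of 10, relative to the total count without TMM factors, in 1 or more libraries were tested. After TMM normalization, edgeR 4.0.16 (glmQLFit, glmQLFTest, R 4.3.3) was fitted with condition as the only term, with Benjamini-Hochberg adjustment over all genes at 0.05. TMM-scaled CPM is given for levels. The methods of the study fit limma-voom, which was an alternative (limma 3.58.1), as was DESeq2 1.42.0. For 8 ratios of counts within a library, a two-sided exact permutation test was run in SciPy 1.17.1. The smallest p for 6 against 6 libraries is 0.00216. The scripts were tested on simulated data. Figures were drawn with matplotlib 3.10.9.

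Counts of 2 libraries of a group differed beyond sampling noise in each of 15 pairs within either group (chi-square divided by its degrees of freedom, 3.22 to 19.66 and 3.78 to 18.83). Same-numbered libraries did not deviate together, so replicate numbers were not treated as pairs. Members and lists were chosen with earlier results of these data known. The genes named were the 10 members, at most 4 called genes per direction and list with the lowest p, 11 fixed partners and lineage genes, and the 3 genes most like a called member, except that Ugt8, Top2a and Rrm2 were named after their values were seen. One gene that this rule names is not reported here. Levels of different genes were not compared, since the counts are not per length.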

Additional observations from a re-analysis of the deposited data

Results flagged for a closer look

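The Dnmt1 level of mild-hypo-OPC replicate 6 stood apart from the other libraries of its group at 38.5 CPM, where the next lowest library was at 51.5 CPM, a gap of 0.632 of the range of the group that exceeds Dixon's critical value. It was the 1 value so marked among 36 groups of 6 libraries, and chance marks about 1 in 20 such groups.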

How the results depend on the processing

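The depth of standard OPC libraries limits the precision of each member, and total count and condition cannot be separated. Genes called higher numbered 1136 with upper-quartile scaling, 5515 with library size only, 53 with replicates 1 to 3 only and 0 when log2 total count was a covariate, and genes called lower 405, 343 and 43 in the last 3 settings. In these fits the share of calls that were higher was 29.2% in the main result, 47.5%, 93.2%, 13.4% and 0%. Members called higher were 1 with DESeq2, upper-quartile scaling, at least 10 counts in every library and ribosomal RNA rows removed, and 7 with library size only. Members called lower were 0 with upper-quartile scaling, library size only, replicates 1 to 3, thinning and the covariate. Genes of the 6 pathway lists called higher were 7 with upper-quartile scaling, 60 with library size only and 0 with replicates 1 to 3 and the covariate, and those called lower were 4, 1 and 1 with library size only, replicates 1 to 3 and the covariate. The cause was not tested.

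The sign of 8 members turned in at least 1 setting. With upper-quartile scaling Chd8 was 0.00 and Eed 0.04, and with library size only Chd8 was 0.37, Ezh2 0.30, Eed 0.40 and Hdac3 0.20. Eed was 0.01 with no filter, Hdac2 -0.00 with filterByExpr and with replicates 1 to 3, and with replicates 4 to 6 Eed was 0.03 and Hdac1 -0.03. Ezh2 was 0.05 after thinning. With the covariate Smarca4 was -0.27, Hdac1 -0.09, Hdac2 -0.16 and Dnmt1 -0.00. Leaving out 1 library turned the sign of some members, whose ranges were -0.03 to 0.08 for Smarca4, -0.07 to 0.03 for Eed, -0.12 to 0.01 for Chd8, -0.03 to 0.07 for Hdac1 and -0.05 to 0.05 for Hdac2. Among ratios, Hdac1/Hdac2 was -0.00 with a count of 2 added. With replicates 4 to 6 Smarca4/Smarca2 was -0.05, Ezh2/Ezh1 0.11, Hdac1/Hdac2 -0.05 and Dnmt1/Dnmt3a -0.17. After thinning Chd7/Chd8 was -0.36, Ezh2/Ezh1 0.19, Ezh2/Eed 0.09 and Dnmt1/Dnmt3a -0.08. Leaving out 1 library gave 436 to 823 genes higher and 1165 to 1664 lower, 0 to 2 members higher and 0 to 1 lower, 3 to 5 and 8 to 12 pathway genes, and ratio differences of -0.51 to -0.40 (Chd7/Chd8), -0.02 to 0.10 (Dnmt1/Dnmt3a), -0.20 to -0.00 (Ezh2/Eed), -0.37 to -0.05 (Ezh2/Ezh1), -0.04 to 0.05 (Hdac1/Hdac2), 0.19 to 0.28 (Hdac1/Hdac3), 0.14 to 0.33 (Prmt5/Wdr77) and 0.06 to 0.27 (Smarca4/Smarca2).

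The replicate numbers did not pair the libraries (correlations of same-numbered deviations from -0.28 to 0.3, with 1 of 6 numbers matching best with itself). With the replicate block, 572 genes were higher and 1471 lower, Chd7 was called (adjusted p = 0.046) and the Chd7/Chd8 difference was -0.45 (adjusted p = 0.125 by exact sign flips, whose smallest p is 0.0312).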
